A study of Mus musculus with 473 samples.

Results

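The genes described are 8 components of a pair of trophic signalling systems, the receptor tyrosine kinase Ret with its coreceptors Gfra1 and Gfra2 and the ligand Gdnf, and the neurotrophins Bdnf and Ntf3 with their receptors Ntrk2 and Ntrk3. They were chosen by name among the 28952 features of the deposited table, and each matched 1 feature. The study sequenced 473 sorted eGFP-positive single cells by Smart-Seq2, which copies transcripts over their whole length, and 396 of them passed the authors' quality control. By its title, the study used these neurons to inform which genes to follow up in sporadic Parkinson's disease.

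All cells came from Th:EGFP mice, in which a bacterial artificial chromosome with regulatory sequences of tyrosine hydroxylase (Th), the rate-limiting enzyme of dopamine synthesis, drives eGFP; hemizygous males had been crossed to wild-type Swiss Webster females. The groups were midbrain (MB), forebrain (FB, described in the labels as hypothalamus) and olfactory bulb (OB) at postnatal day 7 (P7), and MB and FB at embryonic day 15.5 (E15.5). Values of 30 P7 MB cells, 31 P7 FB cells, 16 P7 OB cells, 88 E15.5 MB cells and 84 E15.5 FB cells were compared. Each group was 1 pool of animals (5 pups or 4 embryos), so no difference between groups could be set against replicates or tested, and every ± is the SD over cells. Each age also had its own sort and sequencing run, and P7 tissue alone had a longer papain digestion followed by a density gradient, so age cannot be told apart from these steps. A further 147 passed P7 cells (45 MB, 50 FB and 52 OB) lie on 2 library plates, of 76 and 71 passed cells, whose columns matched their labels when exchanged well by well; their values are given beside the others as "exchanged plates".

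Ligands of the GDNF family bind a lipid-anchored Gfra coreceptor, and the pair then engages and activates Ret, which carries the kinase. Gfra1 is the preferred coreceptor of GDNF, and Gfra2 that of neurturin. BDNF binds the kinase receptor encoded by Ntrk2 (TrkB), and neurotrophin-3 binds that encoded by Ntrk3 (TrkC); GDNF and BDNF are known as survival factors for cultured midbrain dopaminergic neurons. Ntrk2 and Ntrk3 also encode receptor forms without a kinase domain, which gene-level values cannot tell apart from the full receptors.

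On build mm10, with coordinates from GENCODE M21, Ret lies at chr6:118151745-118197718 on the minus strand, Gfra1 at chr19:58235604-58455909 (minus), Gfra2 at chr14:70890120-70979838 (plus) and Gdnf at chr15:7810846-7837575 (plus). Bdnf lies at chr2:109674700-109727007 (plus), Ntf3 at chr6:126101412-126166910 (minus), Ntrk2 at chr13:58806569-59133970 (plus) and Ntrk3 at chr7:78175959-78738012 (minus). Values cover all transcripts of a gene and are in FPKM, which is scaled to transcript length, so levels may be compared between genes. A cell was counted with a gene at FPKM of 1 or more; intervals are exact (Clopper-Pearson) 95% intervals that cover counting error only.

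The labelled identity was uneven between the groups. Th was found in 29 of 30 P7 MB cells, 30 of 31 P7 FB cells and 16 of 16 P7 OB cells, but in 26 of 88 E15.5 MB cells and 27 of 84 E15.5 FB cells. The list of 6 neuron markers had a median sum per cell between 2284 FPKM (P7 OB) and 7272 FPKM (E15.5 MB), and of 6 microglial markers 4 were listed at 0 in P7 MB, 5 in P7 FB, 5 in P7 OB, 3 in E15.5 MB and 5 in E15.5 FB. The median number of genes per cell in the labels was 6126.5 in P7 MB, 5164 in P7 FB, 3310 in P7 OB, 6227.5 in E15.5 MB and 5554.5 in E15.5 FB, and depth itself is unknown. One P7 FB cell, singled out after the values were seen, had 3513 FPKM of the dopamine transporter Slc6a3 and 4569 FPKM of Th. The other P7 FB cells had means of 5.47 and 654.6 FPKM. Comparisons of P7 FB as deposited are given with and without this cell for Ret, Bdnf and Ntf3. Rescaled folds, values of its cluster, numbers of these genes per cell and other pathway genes are given only with it.

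Ret was found most often in P7 midbrain cells. It was found in 28 of 30 P7 MB cells (93.3%, interval 77.9 to 99.2%) at a mean of 92.8 ± 60.2 FPKM, with a median of 93.2 and a highest value of 275 FPKM. It was found in 9 of 31 P7 FB cells (29.03%, interval 14.22 to 48.04%; mean 16.4 ± 38.1 FPKM) and in 7 of 16 P7 OB cells (43.8%, interval 19.8 to 70.1%; mean 22.4 ± 31.6 FPKM). In both of these groups the median cell was below 1 FPKM, and the highest cell had 178 FPKM in FB and 101 FPKM in OB, so the highest FB cell lay within the P7 MB range. Embryonic cells had it in 35 of 88 cases in MB (39.8%, interval 29.5 to 50.8%; mean 51.9 ± 151 FPKM, highest 1126) and in 10 of 84 in FB (11.9%, interval 5.86 to 20.8%; mean 7.98 ± 28.3 FPKM, highest 154). By mean, the order was P7 MB, E15.5 MB, P7 OB, P7 FB and E15.5 FB, and only in P7 MB was the mean larger than the SD over cells; neighbours in that order overlapped in range.

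Gfra1 was widespread in all groups except the olfactory bulb. It was found in 23 of 30 P7 MB cells (76.7%; mean 108 ± 144 FPKM, median 42.8, highest 536), 11 of 31 P7 FB cells (35.5%; mean 48.8 ± 86.7 FPKM, highest 298) and 2 of 16 P7 OB cells (12.5%, interval 1.55 to 38.3%). The OB mean of 4.97 FPKM came almost wholly from 1 cell, which held 97.2% of the sum, and was 0.151 FPKM without it. At E15.5 Gfra1 had the highest mean of the 8 genes in both regions, 228 ± 419 FPKM in MB (51 of 88 cells, highest 2678) and 191 ± 318 FPKM in FB (48 of 84 cells, highest 1425). Shares in MB and FB at E15.5, 57.95% and 57.1%, differed by less than their counting intervals (46.95 to 68.4% and 45.9 to 67.9%).

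As deposited, Gfra2 had nearly the same mean in 4 of the 5 groups. The means were 46.4 ± 57.2 FPKM in P7 MB, 44.5 ± 75.6 in P7 FB, 4.25 ± 11.0 in P7 OB, 47.4 ± 86.5 in E15.5 MB and 43.97 ± 87.2 in E15.5 FB. The shares of cells differed more, with 21 of 30 cells in P7 MB (70.0%, interval 50.6 to 85.3%), 12 of 31 in P7 FB (38.7%, interval 21.9 to 57.8%), 3 of 16 in P7 OB, 42 of 88 in E15.5 MB and 34 of 84 in E15.5 FB. Among the compared P7 cells, similar means thus went with more cells at a lower level in MB. The cells with Gfra2 had a median of 46.5 FPKM in P7 MB, against 83.8 FPKM in those of P7 FB. On the exchanged plates this order was reversed, with medians of 17.5 FPKM (32 of 45 MB cells) and 12.97 FPKM (19 of 50 FB cells). Means there were 13.6 and 8.04 FPKM. With each cell rescaled to the same sum of FPKM, the compared P7 cells had means of 86.4 in MB and 72.3 in FB. The rescaled E15.5 means were 43.9 in MB and 46.6 in FB.

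Gdnf, the ligand of the Gfra1 and Ret pair, was listed at 0 in every compared cell but 1. That E15.5 FB cell had 16.9 FPKM, and 1 P7 OB cell of the exchanged plates had 3.09 FPKM. A count of 0 in 30 P7 MB cells allows a share of up to 11.6% at the upper end of its interval, and 0 in 88 E15.5 MB cells up to 4.11%.

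The neurotrophin genes Bdnf and Ntf3 were found in a larger share of P7 midbrain cells than of any other group. Bdnf was found in 22 of 30 P7 MB cells (73.3%, interval 54.1 to 87.7%, mean 26.6 ± 30.8 FPKM, median 14.7, highest 107), in 2 of 31 P7 FB cells and in none of 16 P7 OB cells. On the exchanged plates it was found in 24 of 45 P7 MB cells (53.3%, mean 6.48 ± 9.63 FPKM) and in 4 of 50 P7 FB cells. Embryonic MB had it in 25 of 88 cells (28.4%, interval 19.3 to 39.02%; mean 10.9 ± 25.4 FPKM, highest 167) and embryonic FB in 6 of 84 (7.14%; mean 2.72 ± 19.9 FPKM, of which 1 cell gave 79.5%).

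Ntf3 was found in 18 of 30 P7 MB cells (60%, interval 40.6 to 77.3%) at a mean of 49.002 ± 63.1 FPKM, with a median of 24.6 and a highest value of 205 FPKM. It was found in 2 of 31 P7 FB cells, in none of 16 P7 OB cells, in 1 of 88 E15.5 MB cells (63.6 FPKM) and in 1 of 84 E15.5 FB cells (22.9 FPKM). Of the P7 FB cells, the cell with the most Slc6a3 held the highest Ret (178 FPKM), Bdnf (59.4 FPKM) and Ntf3 (152 FPKM) of its group; without it the P7 FB means were 11.04 FPKM for Ret, 0.414 for Bdnf and 2.04 for Ntf3.

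The receptor Ntrk2 was found in most cells of every group except the olfactory bulb. It was found in 28 of 30 P7 MB cells (mean 28.7 ± 19.0 FPKM, highest 75.2), 29 of 31 P7 FB cells (mean 29.98 ± 20.4 FPKM, highest 94.7), 82 of 88 E15.5 MB cells (mean 53.2 ± 47.7 FPKM, highest 211) and 70 of 84 E15.5 FB cells (mean 79.5 ± 88.9 FPKM, highest 439). In P7 OB it was found in 4 of 16 cells (25.0%, interval 7.27 to 52.4%), and 1 of these held 65.4% of the sum. The astrocyte gene list, given because astrocytes also express Ntrk2, had a median sum per cell between 1.58 FPKM (P7 OB) and 29.2 FPKM (E15.5 MB), and among clusters it reached 173.9 FPKM in P7.OB.1 and 131.1 FPKM in E15.MB.2. Of its 8 genes, 3 were listed at 0 in P7 MB, none in P7 FB, 1 in P7 OB, 2 in E15.5 MB and 3 in E15.5 FB, and its part in the Ntrk2 values was not tested.

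Ntrk3 had lower FPKM, as deposited, at P7 than at E15.5. The gene was present in 20 of 30 P7 MB cells (66.7%; mean 15.3 ± 32.5 FPKM, highest 149), in 16 of 31 P7 FB cells (51.6%; mean 12.4 ± 20.7 FPKM, highest 80.2) and in no P7 OB cell of 16. At E15.5 the counts were 53 of 88 MB cells (60.2%; mean 97.3 ± 216 FPKM, highest 1531) and in 37 of 84 FB cells (44.05%; mean 59.8 ± 115 FPKM, highest 470). The cells with Ntrk3 had medians of 10.45 FPKM in P7 MB and 10.37 FPKM in P7 FB, against 64.6 FPKM in E15.5 MB and 79.7 FPKM in E15.5 FB.

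**Figure D1:**
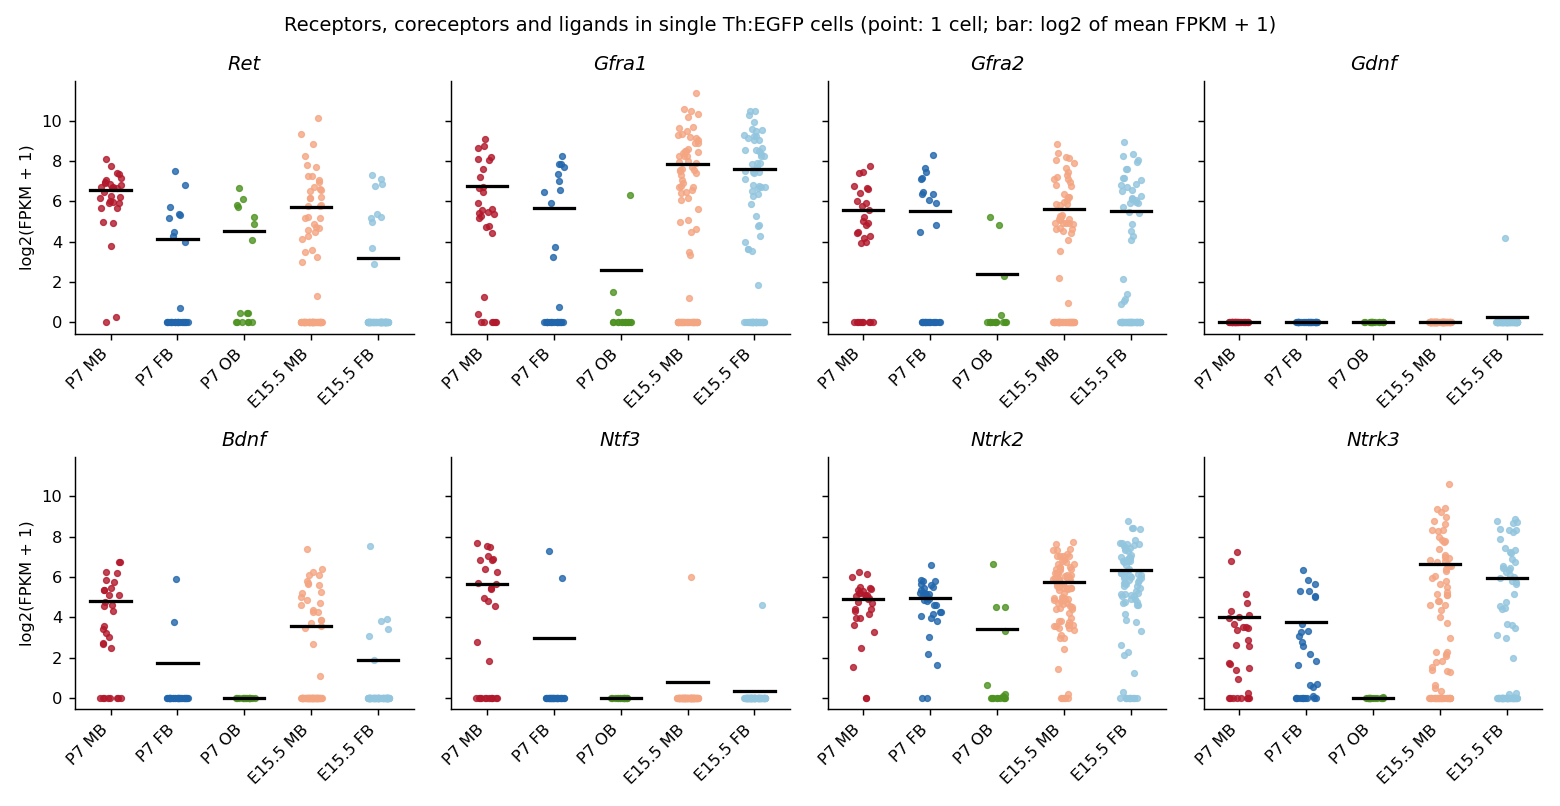
Level of each of the 8 genes, as log2(FPKM + 1) on the vertical axis, in the 5 groups on the horizontal axis; each point is 1 cell and the bar is the log2 of the mean FPKM + 1. Ret fills the P7 MB column (28 of 30 cells), Ntf3 is seen in 18 of 30 P7 MB cells and in at most 2 cells of any other group, and Gdnf lies at 0 in all cells but 1.

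P7 MB cells also held the most of these genes per cell. P7 MB cells had a median of 5 of the 8 (range 3 to 7), P7 FB cells 2 (0 to 7), P7 OB cells 1 (0 to 4), E15.5 MB cells 3 (1 to 6) and E15.5 FB cells 2 (0 to 6). None of the 8 was found in 5 of 16 P7 OB cells, a group that also had the fewest genes per cell. On the exchanged plates this held for 7 of 52 P7 OB cells.

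Folds between groups are given as log2 of the ratio of (mean FPKM + 1), which understates differences of low genes, and a 2-fold difference was the rule of size. Between P7 MB and P7 FB, 7 of the 8 genes had a mean of at least 1 FPKM in either group. Of these, 4 stood at least 2-fold above P7 FB, as did 10.8% of all features, and none stood 2-fold below it, as did 13.8% of all features. The log2 folds were 2.43 for Ret, 1.12 for Gfra1, 3.06 for Bdnf and 2.66 for Ntf3. Leaving out the FB cell with the most Slc6a3 gave 2.96 for Ret, 4.29 for Bdnf and 4.04 for Ntf3. The remaining folds were 0.06 for Gfra2, -0.06 for Ntrk2 and 0.28 for Ntrk3. On the exchanged plates, Ret had a mean of 41.2 ± 27.4 FPKM in 45 P7 MB cells (40 with it) and of 3.95 ± 8.60 FPKM in 50 P7 FB cells (13 with it), and Ntf3 was found in 18 of 45 P7 MB and 3 of 50 P7 FB cells. On either exchanged plate the 4 folds had the same direction, in cells of the same pools, but Gfra1 stood at 1.33 on the plate of 76 cells and at 0.90, within 2-fold, on that of 71 cells.

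The olfactory bulb stood lowest for most of the genes. All 7 compared genes stood at least 2-fold above P7 OB in P7 MB, as did 29.8% of all features, while 20.3% of all features stood 2-fold below. The log2 folds were 2.01 for Ret, 4.19 for Gfra1, 3.17 for Gfra2, 1.49 for Ntrk2 and 4.03 for Ntrk3, and Bdnf and Ntf3 were listed at 0 in all 16 OB cells. Against P7 OB, P7 FB had 6 of 7 genes at least 2-fold higher, with 31.1% of all features higher and 18% lower; the exception was Ret, with a log2 fold of -0.42. Bdnf and Ntf3 were listed at 0 in OB and rested on 2 FB cells each; without the FB cell with the most Slc6a3 the mean of Bdnf was 0.414 FPKM, too low to be compared, the count was 5, and Ret stood at -0.96. Ret was found in 29.03% of FB cells and 43.8% of OB cells, with intervals that overlapped. OB cells had fewer genes found than cells of the other regions, and the part of that in these shares was not tested. Of 52 P7 OB cells on the exchanged plates Ret was found in 26, while Gfra1 was found in 2, Bdnf in 1, Ntf3 in none and Ntrk3 in 7.

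At E15.5, 2 of 6 compared genes stood at least 2-fold higher in MB than in FB, as did 8.46% of all features, and none stood 2-fold lower, as did 9.41%. These were Ret, with a log2 fold of 2.56, and Bdnf, with 1.68. Within the 2 E15.5 library plates the log2 fold was 2.38 and 2.89 for Ret and 2.72 and 1.03 for Bdnf. Gfra1 (0.25), Gfra2 (0.11) and Ntrk3 (0.69) stayed within 2-fold, and Ntrk2 stood at -0.57.

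Across age, the sum of FPKM per cell differed. Its median was 493100 in P7 MB and 517900 in P7 FB, against 972800 in E15.5 MB and 1.054e+06 in E15.5 FB. The median log2 fold of all features compared was -1.18 between P7 MB and E15.5 MB and -1.20 between P7 FB and E15.5 FB. In MB, 2 of 7 genes were at least 2-fold higher at P7 (5.23% of all features) and 2 were at least 2-fold lower (58.4% of all features). Ntf3 was higher with a log2 fold of 4.86 and Bdnf with 1.21, Ntrk3 was lower with -2.59 and Gfra1 with -1.08, and Ret stood at 0.83, Gfra2 at -0.03 and Ntrk2 at -0.87. In FB, 1 of 7 genes was higher at P7 (6.73% of all features) and 3 were lower (58.8% of all features): Ntf3 stood at 2.63, Gfra1 at -1.95, Ntrk2 at -1.38 and Ntrk3 at -2.18, and the Ntf3 value rests on 2 P7 cells. Without the FB cell with the most Slc6a3, Ntf3 stood at 1.25, Ret at 0.42, against 0.96 with it, and Bdnf at -1.39, against -0.16 with it, so that 1 gene was higher and 4 were lower. That Bdnf call rests on 1 E15.5 FB cell with 79.5% of the sum of its group. Without this embryonic cell the E15.5 FB mean was 0.564 FPKM, and P7 FB without its own cell had 0.414 FPKM.

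After each cell was rescaled to the same sum of FPKM, the median of all features was -0.29 in MB and -0.27 in FB, and several calls changed: Ret passed 2-fold in both regions, and Gfra1 in both regions and Ntrk2 in FB came within it. In MB the rescaled log2 folds of P7 over E15.5 were 2.05 for Ret, -0.07 for Gfra1, 0.96 for Gfra2, 2.17 for Bdnf, 5.59 for Ntf3, 0.08 for Ntrk2 and -1.55 for Ntrk3. With all E15.5 MB cells together, Ret and Ntf3 were thus above, and Ntrk3 below, the shift of all features on both scales. Gfra1 lay 0.10 above the median of all features as deposited and 0.22 above it after rescaling. Th was found in 26 of these 88 E15.5 cells, against 29 of 30 P7 MB cells. By cluster label 68 were E15.MB.1 and 20 E15.MB.2, with Ret in 16 and 19. The part of this make-up in the folds was not tested, and values of E15.MB.2 alone are given below. In FB the rescaled folds were 1.91 for Ret, -0.98 for Gfra1, 3.20 for Ntf3, -0.37 for Ntrk2 and -1.01 for Ntrk3. As deposited, Ret in MB stood at -0.22 and -0.42 on the exchanged plates of 76 and 71 cells, and Bdnf at -0.81 and -0.58. Sums of FPKM were lower still there (medians of 198600 and 258100) and the median of all features stood at -2.39 and -2.02, so relative to it Ret lay 2.17 and 1.61 above and Bdnf 1.58 and 1.45 above.

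**Figure D2:**
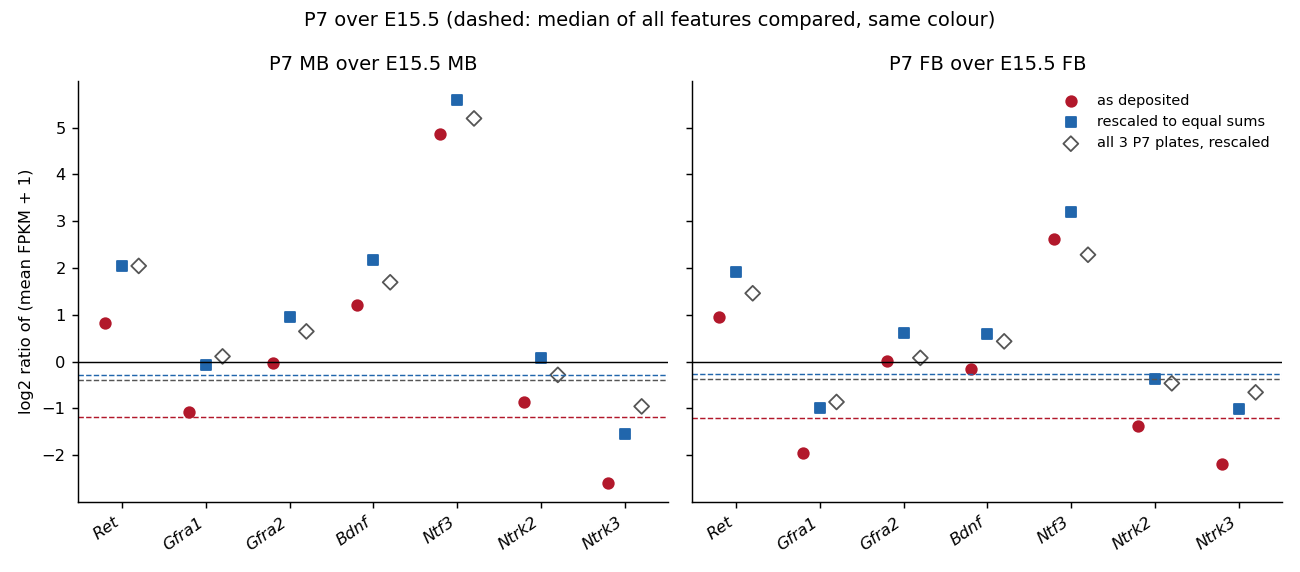
Log2 ratio of (mean FPKM + 1) at P7 over E15.5 for 7 genes, in MB (left) and FB (right), from values as deposited, after rescaling of each cell to the same sum, and after rescaling with all 3 P7 plates; dashed lines are the medians of all features compared in the same colour. Ntf3 stands highest in both panels, at 4.86 in MB and 2.63 in FB as deposited, and Ntrk3 stays below 0 on every scale shown.

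Receptor and coreceptor were then counted within the same cells. In P7 MB, 26 of 28 cells with Ret also had Gfra1 or Gfra2, and 15 of 28 had both. Both P7 MB cells without Ret had Gfra1 or Gfra2 as well, and on the exchanged plates 40 of 40 cells with Ret and 4 of 5 without it had a coreceptor. In P7 FB, all 9 cells with Ret had Gfra1 and 8 of these also had Gfra2, against 2 and 4 of 22 cells without Ret. The FB cells with Ret had a median of 6534 genes and those without it 4763.5, and the part of this difference in the joint finding was not tested. Among exchanged-plate FB cells, Gfra1 was found in 10 of 13 with Ret, against 14 of 37 without it, and both coreceptors in 7 of 13, against 4 of 37. Either coreceptor was found in 13 of 13 of these cells with Ret and in 19 of 37 without it, with medians of 6061 and 4608 genes.

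In P7 OB the coreceptors were scarce in cells with Ret, since 2 of 7 had Gfra1 or Gfra2, against 2 of 9 cells without Ret; on the exchanged plates these were 4 of 26 and 8 of 26. At E15.5 a coreceptor was found in 27 of 35 MB cells with Ret and in 39 of 53 without it, and in 7 of 10 FB cells with Ret and in 49 of 74 without it. In E15.5 FB, 42 of 74 cells without Ret had Gfra1, so most Gfra1-bearing cells of that group (42 of 48) lacked Ret at 1 FPKM.

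Neurotrophin ligands and their receptors were often found in the same P7 MB cells, but neither receptor was found more often with its ligand than without it. In P7 MB, 20 of 22 cells with Bdnf had Ntrk2, as did 8 of 8 cells without Bdnf. Of 18 cells with Ntf3, 10 had Ntrk3, against 10 of 12 without Ntf3. Ntf3 and Bdnf were found together in 16 of the 18 cells with Ntf3, against 6 of 12 without it; these cells had medians of 6525 and 5596.5 genes, and the part of that in the overlap was not tested. The same counts on the exchanged plates were 14 of 18 MB cells with Ntf3 and 10 of 27 without it. Ntrk2 was found there in 18 of 24 MB cells with Bdnf and in 20 of 21 without it. Ntrk3 was found there in 12 of 18 MB cells with Ntf3 and in 19 of 27 without it.

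Within the P7 midbrain, the authors' cluster labels split the cells in 4, and the 8 genes differed between them. These labels were made from the same cells, so the values are a description. P7.MB.1 (15 cells) had Th, Slc6a3 and Calb1 in 15 of 15 cells and Otx2, a transcription factor of the ventral tegmental list, in 10. It had Ret in all cells (mean 117 ± 63.3 FPKM), Gfra1 in 13 (187 ± 168 FPKM), Gfra2 in 14 (72.1 ± 66.6 FPKM), Bdnf in 9 (29.3 ± 38.8 FPKM) and Ntf3 in 10 (60.2 ± 67.9 FPKM). Within this cluster, all 9 cells with Bdnf were among the 10 with Ntf3. This was not so for its 24 cells on the exchanged plates, where Bdnf was found in 7 of 10 cells with Ntf3 and in 3 of 14 without it. Its mean of Gfra2 was the highest of the 13 clusters, and that of Gfra1 the highest of the P7 clusters.

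P7.MB.4 (7 cells), in which all cells had Aldh1a1 and Fgf20 and 5 had Sox6, genes of the substantia nigra list, had Ret, Bdnf, Ntf3 and Ntrk2 in every cell but Gfra1 in 3. Its Ntf3 ranged from 5.79 to 180 FPKM with a mean of 80.6 ± 61.8, and its Ret from 58.3 to 168 FPKM with a mean of 94.9 ± 42.7. Gfra1 was listed at 0 in 4 of the 7 cells and had 1.36, 42.2 and 46.3 FPKM in the others, for a mean of 12.8 ± 21.5 FPKM, while Gfra2 was found in 5 (mean 39.8 ± 35.9 FPKM). These cells had the highest median number of genes of the clusters, 7490. The 8 cells of this cluster on the exchanged plates had Ret and Ntf3 in all 8, Bdnf in 7, Gfra2 in 7 and Gfra1 in 2.

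P7.MB.3 (4 cells) had the neuropeptide gene Vip in every cell and showed the opposite pattern of coreceptors. Ret was found in all 4 cells at 29.6, 69.5, 87.9 and 98.4 FPKM, and Gfra1 in all 4 at 20.6, 25.3, 39.9 and 146 FPKM. Gfra2 and Ntf3 were listed at 0 in all 4. Bdnf was found in all 4 at 18.6, 23.6, 32.9 and 33.4 FPKM, and Ntrk2 in 2 at 14.6 and 40.7 FPKM. On the exchanged plates, the 6 cells of this cluster had Ret, Gfra1 and Bdnf in all 6, Gfra2 and Ntf3 in none and Ntrk2 in 2. A count of 0 in 4 cells alone allows a share of up to 60.2%, and 0 in the 6 cells up to 45.9%.

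P7.MB.2 (4 cells), which had a mean Th of 43.1 FPKM and Slc6a3 in none of its cells, was the midbrain cluster with the least Ret. Ret was found in 2 of 4 cells, at 12.6 and 63.4 FPKM, and on the exchanged plates in 3 of 7 cells at a mean of 4.297 ± 6.296 FPKM. Gfra1 was found in 3 of 4 and, on the exchanged plates, in 6 of 7 cells, and Ntrk2 in 4 of 4 and 6 of 7.

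**Figure D3:**
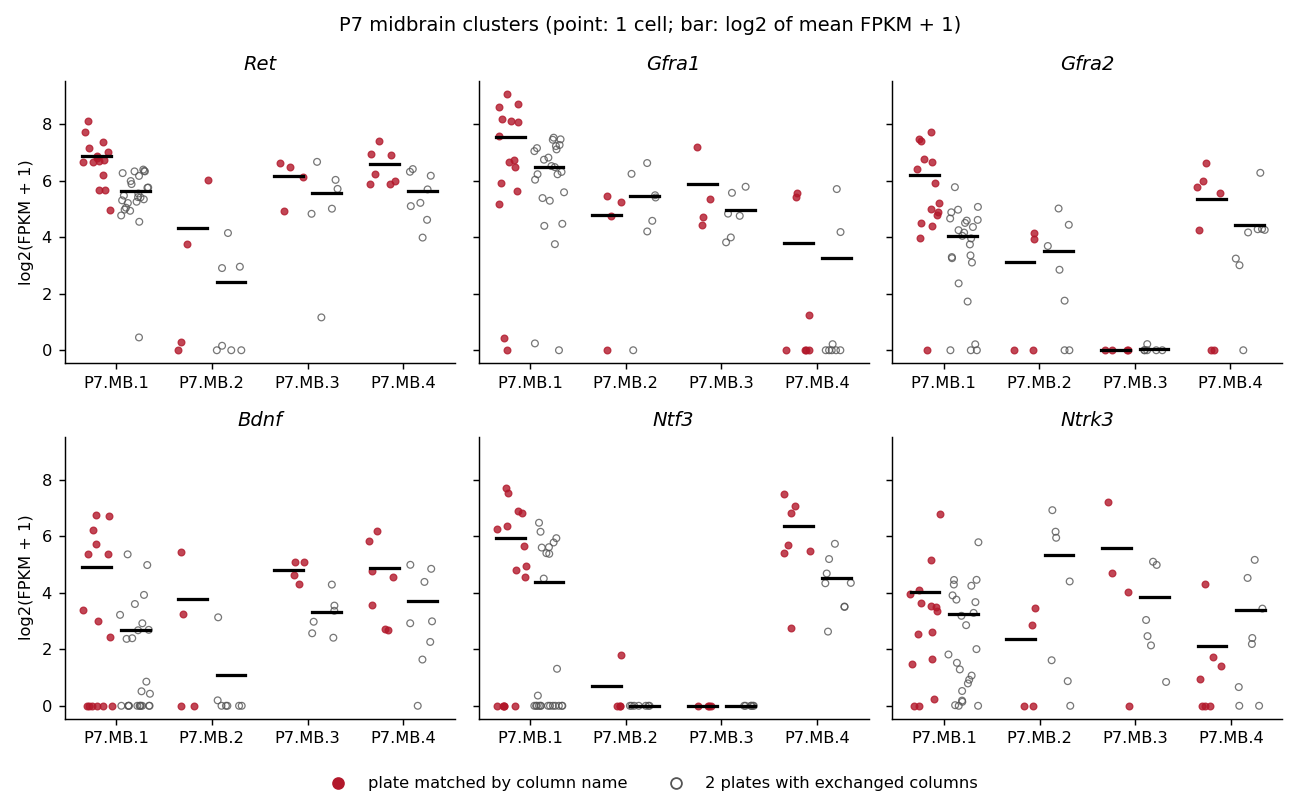
Level of 6 genes, as log2(FPKM + 1) on the vertical axis, in the 4 P7 MB clusters on the horizontal axis; filled points are the 30 cells of the matched plate, open points the 45 cells of the exchanged plates, and bars the log2 of the mean FPKM + 1. Gfra2 and Ntf3 lie at or near 0 in P7.MB.3 in both sets, and Gfra1 lies at or near 0 in most P7.MB.4 cells of both.

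In the P7 forebrain, Ret was confined among the compared cells to cluster P7.FB.2, with 9 of 21 cells (42.9%; mean 24.2 ± 44.5 FPKM), while 0 of 10 cells of P7.FB.1 had it, a count that allows up to 30.9%. P7.FB.1 cells had Th in all 10 (mean 729.9 FPKM) and Ntrk2 in 9, but Gfra1 in 2, Gfra2 in 1 and Bdnf and Ntf3 in none. On the exchanged plates Ret was found in 13 of 34 P7.FB.2 cells and in 0 of 16 P7.FB.1 cells, whereas Gfra1 was found in 16 of 34 and in 8 of 16. Cells of P7.FB.1 had a median of 4520.5 genes and those of P7.FB.2 5968.

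In the olfactory bulb, Ret was found in 2 of 5, 1 of 5 and 4 of 6 cells of P7.OB.1, P7.OB.2 and P7.OB.3, and on the exchanged plates in 5 of 15, 15 of 28 and 6 of 9, so the low share of P7.OB.2 was not seen there. The P7.OB.3 cells had 0, 0, 16.0, 36.1, 55.8 and 101 FPKM of Ret with Gfra1 below 1 FPKM in all 6. The 2 cells with Gfra1 (1.86 and 77.2 FPKM) and 3 of the 4 cells with Ntrk2 fell in P7.OB.1. This cluster had the most neuroblast markers (median sum 496.9 FPKM, against 48.5 in P7.OB.2 and 42.3 in P7.OB.3). The astrocyte and radial glia list was highest in the same cluster, with a median sum of 173.9 FPKM in P7.OB.1, 1.53 in P7.OB.2 and 0.508 in P7.OB.3, and the part of these markers in the Ntrk2 and Gfra1 values was not tested. On the exchanged plates Ntrk2 was found in 8 of 15 cells of P7.OB.1, 5 of 28 of P7.OB.2 and 1 of 9 of P7.OB.3. Gfra1 was found there in 1 of 15, 0 of 28 and 1 of 9 cells, so it was not limited to P7.OB.1.

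**Figure D4:**
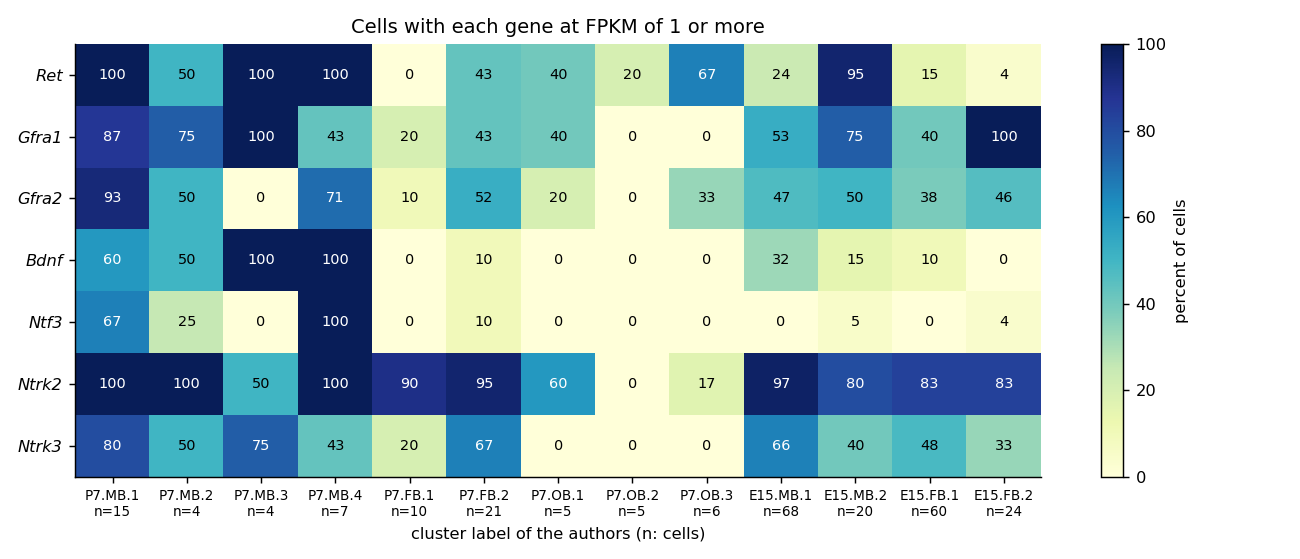
Percent of cells with each of 7 genes at FPKM of 1 or more (colour and number) in the authors' 13 clusters, with the number of cells under each label. Ret reaches 100% in 3 of the 4 P7 MB clusters and 95% in E15.MB.2, Gfra1 reaches 100% in E15.FB.2 and P7.MB.3, and Bdnf, Ntf3 and Ntrk3 are at 0 in the OB clusters.

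At E15.5, Ret followed the cluster with dopaminergic markers. E15.MB.2 (20 cells), with mean Th of 3780 FPKM and Nr4a2, a transcription factor of midbrain dopaminergic neurons, in 20 of 20 cells, had Ret in 19 cells (95%, interval 75.1 to 99.9%) at a mean of 188 ± 275 FPKM and a median of 82.6 FPKM. P7 MB cells together had a mean of 92.8 and a median of 93.2 FPKM of Ret. E15.MB.1 (68 cells), with mean Th of 29.6 FPKM, had Ret in 16 cells (23.5%, interval 14.09 to 35.4%) at a mean of 11.98 ± 31.4 FPKM. On the 2 plates E15.MB.2 had Ret in 10 of 11 and 9 of 9 cells. Gfra1 differed less, with 15 of 20 cells (272 ± 323 FPKM) in E15.MB.2 and 36 of 68 (215 ± 445 FPKM) in E15.MB.1.

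The neurotrophin receptors had the opposite bias within the E15.5 midbrain. Ntrk3 was found in 8 of 20 E15.MB.2 cells (mean 29.8 ± 80.6 FPKM) and in 45 of 68 E15.MB.1 cells (mean 117 ± 238 FPKM), and Ntrk2 in 16 of 20 (34.9 ± 34.5 FPKM) and 66 of 68 (58.6 ± 49.8 FPKM). P7 MB cells together had a mean of 15.3 FPKM of Ntrk3. Bdnf was found in 3 of 20 and in 22 of 68 cells, with intervals (3.21 to 37.9% and 21.5 to 44.8%) that overlapped. On the 2 plates E15.MB.2 had Ntrk3 in 3 of 11 cells (mean 49.3 FPKM) and in 5 of 9 cells (5.93 FPKM). The medians of genes per cell were 5891 in E15.MB.2 and 6398.5 in E15.MB.1.

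In the E15.5 forebrain, Gfra1 was found in 24 of 24 cells of E15.FB.2 (interval 85.8 to 100%) at 105 to 1425 FPKM and a mean of 518 ± 394 FPKM, against 24 of 60 cells of E15.FB.1 (mean 60.4 ± 145 FPKM). Ret was found in 1 of these 24 cells, at 11.975 FPKM, and in 9 of 60 cells of E15.FB.1. The E15.FB.2 mean of Gfra1 was 590 FPKM on one plate (14 cells) and 417 FPKM on the other (10 cells). Cells of this cluster had a median of 5028 genes, against 5859.5 in E15.FB.1.

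**Figure D5:**
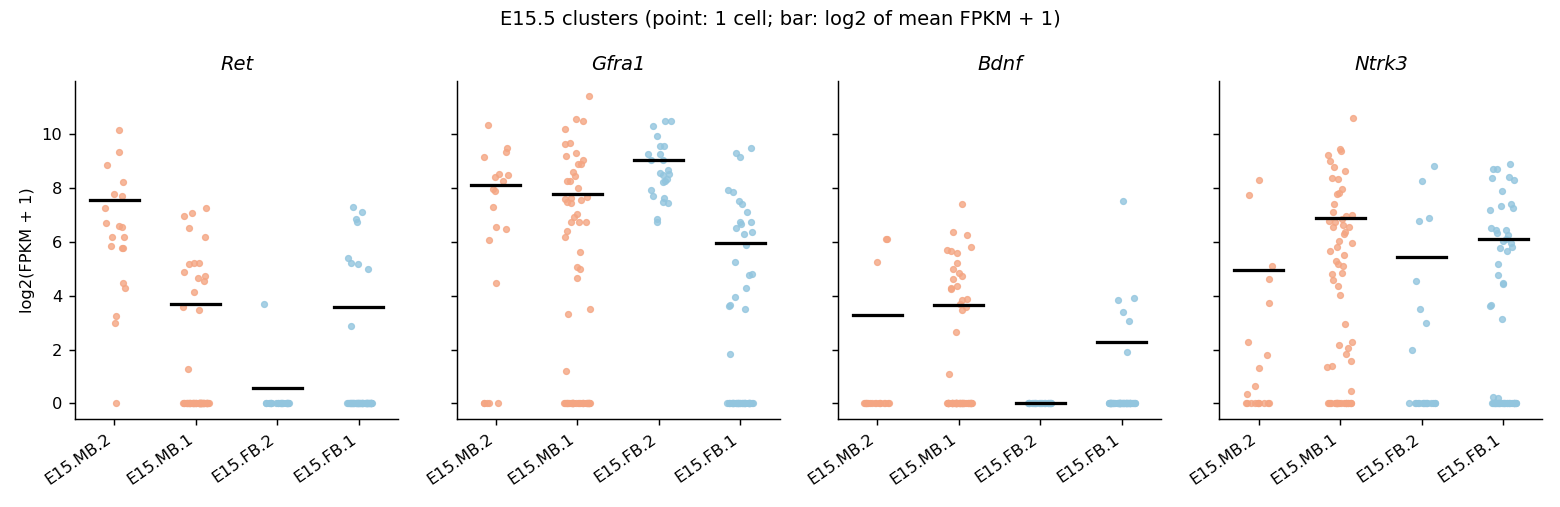
Level of 4 genes, as log2(FPKM + 1) on the vertical axis, in the 4 E15.5 clusters on the horizontal axis; each point is 1 cell and the bar is the log2 of the mean FPKM + 1. Ret is found in 19 of 20 E15.MB.2 cells and in 1 of 24 E15.FB.2 cells, while Gfra1 is found in all 24 E15.FB.2 cells.

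Other genes of the same pathways were taken from a list of 67. For the other GDNF family ligands, Nrtn was found in 4 of 30 P7 MB cells, 1 of 31 P7 FB, 1 of 16 P7 OB, 4 of 88 E15.5 MB and 3 of 84 E15.5 FB cells, and Artn and Pspn in at most 2 cells of a group. Of the other coreceptors, Gfra4 was found in 28 of 30 P7 MB cells (mean 56.1 FPKM), 21 of 31 P7 FB cells (43.6 FPKM), 8 of 16 P7 OB cells (54.6 FPKM), 53 of 88 E15.5 MB cells (64.95 FPKM) and 32 of 84 E15.5 FB cells (52.7 FPKM). Gfra3 was found in at most 1 cell of a group and Gfral in none. Ncam1, an adhesion molecule that also binds GDNF with Gfra1, was found in every cell, at a mean of 260 FPKM in P7 MB, 240 in P7 FB, 159 in P7 OB, 822 in E15.5 MB and 749.5 in E15.5 FB.

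Among other genes of the neurotrophin system, Ntf5 was listed at 0 in every compared cell. The shared neurotrophin receptor Ngfr was found in 2 of 30 P7 MB, 4 of 31 P7 FB, 0 of 16 P7 OB, 9 of 88 E15.5 MB and 8 of 84 E15.5 FB cells.

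Between P7 MB and P7 FB, 5 of 57 listed genes compared stood 2-fold or more higher in MB and 8 lower, beside 10.8% and 13.8% of all features, with a median log2 fold of 0.02 against -0.08 for all features. Pitx3, a transcription factor of midbrain dopaminergic neurons placed on the list as a response gene, was higher at 38.8 FPKM in MB and 1.89 FPKM in FB, and the adaptor Gab2 had 38.9 and 15.2 FPKM. Lower in MB were the immediate early genes Egr1 (3.29 FPKM in MB, 41.2 in FB) and Fos (32.9 and 108 FPKM), the kinase subunit Pik3r1 (3.53 and 21.2 FPKM), the adaptor Dok4 (10.6 and 29.7 FPKM) and the trophic factor Manf (44.4 and 120.1 FPKM).

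Against P7 OB, P7 MB had 13 of 58 listed genes at least 2-fold higher and 13 lower, beside 29.8% and 20.3% of all features, with a median log2 fold of -0.01 against 0.13 for all features. Sdc3, a heparan sulfate proteoglycan that can bind GDNF, was found in 30 of 30 MB cells (106 FPKM) and in 1 of 16 OB cells (0.628 FPKM), and the kinase gene Map2k1 had 85.5 and 10.1 FPKM. Egr1 (3.29 FPKM in MB, 128.5 in OB), Fos (32.9 and 228 FPKM), Pik3r1 (3.53 and 62.8 FPKM) and Dusp6, a phosphatase that limits ERK signalling (4.04 and 38.5 FPKM), were lower in MB. P7 FB over P7 OB had 14 of 57 higher and 11 lower, beside 31.1% and 18% of all features, and Sdc3 had 82.01 FPKM in FB.

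At E15.5, 8 of 60 listed genes were at least 2-fold higher in MB than in FB and 7 were lower, beside 8.46% and 9.41% of all features, with a median log2 fold of -0.04 against -0.12 for all features. Sorcs2, a sorting receptor that binds pro-neurotrophins, was found in 49 of 88 MB cells (57.1 FPKM) and in 11 of 84 FB cells (6.97 FPKM), and Sorcs3 in 52 (44.3 FPKM) and 22 (15.3 FPKM). Pitx3 had 107 FPKM in MB and 0.88 FPKM in FB. Gas1, a protein related to the coreceptors that binds Ret, was found in 4 MB cells (1.46 FPKM) and in 18 FB cells (32.3 FPKM, with 41.2% of the sum from 1 cell).

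Between the ages, 4 of 61 listed genes were at least 2-fold higher at P7 than at E15.5 in MB and 37 were lower, beside 5.23% and 58.4% of all features, with a median log2 fold of -1.32 against the -1.18 of all features; in FB 3 of 58 were higher and 33 lower, beside 6.73% and 58.8% of all features, with a median of -1.16 against -1.20. These medians lay near the shift of all features. Vgf, a peptide precursor induced by neurotrophins, was the gene above 20 FPKM that was higher at P7 in both regions, at 34.6 FPKM in P7 MB and 12.99 in E15.5 MB, and at 30.3 FPKM in P7 FB and 13.4 in E15.5 FB. The scaffold gene Magi2, with 10.4 FPKM in P7 MB and 120.2 FPKM in E15.5 MB, was among those lower beyond the shift.

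The genes whose level followed each of the 8 most closely were taken over the 13 clusters, among 11704 genes, by Pearson's r of log2(mean FPKM + 1). The clusters share plates and depth, so these values are a description. For Ret they were Il13ra1 (0.919), Pcsk2 (0.82) and Chst1 (0.81, with a Spearman's rho of 0.495), for Gfra1 Klhdc10 (0.962), Cacng3 (0.944) and Leprot (0.936), and for Gfra2 Coq10b (0.932), Sbds (0.913) and Gm38165 (0.913). For Bdnf they were Nrn1 (0.968), Cdkl1 (0.949) and Nudt12 (0.937), and for Ntf3 Ano2 (0.92), Chrnb3 (0.918) and Sh3d21 (0.914). For Ntrk2 they were Elavl4 (0.969), Mvb12a (0.965) and Taok2 (0.962), and for Ntrk3 Acad8 (0.968), Top1mt (0.961) and Wscd2 (0.944). Gdnf was too rare for such a comparison. With all 3 P7 plates the value of Nrn1 was 0.949 and that of Il13ra1 was 0.762.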

How the data were processed

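Values are FPKM as deposited; the submitters' processing notes name HISAT2, Cuffnorm and mm10, and versions are not given in the sources used here. Of 28952 features, 28636 had a symbol through GENCODE M21. Steps of whole fragments were not seen (a median of 1.67% of low values in 1 ratio over 84 pairs of cells), so depth is unknown and no count model was used. Genes used by every cell are also at 0 in up to 1.59% of values of a group, so an absent gene is called listed at 0.

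Groups, clusters, plates, quality verdicts and numbers of genes come from the labels. Genes at FPKM of 1 or more per column correlated with the labelled number at 0.996 or more on 3 of 5 library plates, whose 249 passed cells give the main values. On 2 P7 plates the correlations were -0.0338 and -0.0519, and 0.999 after the plates were exchanged well by well; these 147 passed cells, and the 77 failed cells, stay out of the main values. Wells were filled by sorting, and no doublet caller was run.

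Mean FPKM was compared as log2((mean + 1)/(mean + 1)) for features with a mean of at least 1 in either group, with a 2-fold rule of size. The computation was tested on simulated cells, with large changes in genes of at least 20 FPKM and groups as large as those of E15.5. That test does not cover rarely found genes, smaller groups or changes near 2-fold. Cells of a pool are not replicates, so there is no test. The genes, lists and clusters were chosen with earlier results of these data known. Named were the 8 genes, listed pathway genes at least 2-fold apart with a mean of at least 20 FPKM in the higher group, other ligands and receptors by cell counts, and the 3 genes most like each member, where gene and member reached a mean of 10 FPKM in a cluster and the member was found in at least 25% of its cells. Alternatives were other pseudocounts and filters, the mean of log2 values, rescaling, windows of gene number, failed cells, and each plate. Python 3.11.15, numpy 2.4.6, pandas 2.3.3 and scipy 1.17.1 were used. Some listed genes are not reported here.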

Additional observations from a re-analysis of the deposited data

Results flagged for a closer look

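Cells that failed the authors' quality control enter no comparison, and 4 values in them exceeded 3 counts of the total, the limit set for a count of 0. Among 5 failed P7 MB cells of the matched plate, Ret, Gfra1 and Bdnf were each found in 4, a share of 80% (limit 60%), with highest values of 113, 131 and 56.5 FPKM. The passed P7 MB cells had Ret in 28 of 30, Gfra1 in 23 and Bdnf in 22. Those passed shares also lay above 60%, so the flag does not set the failed cells apart from passed ones. Among 8 failed P7 OB cells, Ntrk2 was found in 4, a share of 50% (limit 37.5%), with a highest value of 173 FPKM; the passed OB cells had it in 4 of 16.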

How the results depend on the processing

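Of 81 alternative counts of genes past 2-fold, 77 stayed within 1.5 times the reported count. Such a count takes higher and lower genes together and does not follow which genes they are. For P7 MB over E15.5 MB, rescaling kept the count while Ret passed 2-fold and Gfra1 came within it. With a pseudocount of 10 the E15.5 MB and FB count was 1; with the mean of log2 values the P7 FB and E15.5 FB count was 1, and with all 3 P7 plates rescaled, an alternative added after seeing the data, it was 2; on the exchanged plate of 71 cells the P7 FB and P7 OB count was 3. For the log2 folds, 4 of 497 alternatives reversed a 2-fold call. All concern P7 MB over E15.5 MB: Gfra1 stood at 0.42 with the mean of log2 values and at 0.11 with all 3 plates rescaled, and Bdnf at -0.81 and -0.58 on the exchanged plates of 76 and 71 cells. The median of all features was -0.37, -0.40, -2.39 and -2.02 in these 4, so each value lay above it. Of the others, 444 kept their call under the 2-fold rule and 49 changed it, and the cause was not tested. A fold within 2-fold can change sign and keep its call, as Ret did in that comparison on the exchanged plates. A window of 4000 to 7000 genes was not run for P7 OB, which has 4 such cells. No paired analysis was possible because each group is 1 pool. Unknown depth means that a gene at 0 may be missed rather than absent, small clusters of 4 to 7 cells leave wide intervals, and the exchanged plates rest on the labelled gene numbers alone.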
